A study of Mus musculus with 4 samples.

Results

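The genes described here encode factors and products of the epithelial-to-mesenchymal transition (EMT): the zinc finger repressors Snai1, Snai2, Zeb1 and Zeb2, the helix-loop-helix factors Twist1, Twist2 and Tcf4, the homeobox factor Prrx1, the intermediate filament protein Vim and the matrix protein Fn1. They were taken by name, and all 10 were found among the 21440 protein-coding genes that have a strand in a RefSeq gene table of GRCm38.p6. Open chromatin near them was read from 1 list of regions made by ATAC-seq, in which the Tn5 transposase cuts and tags accessible DNA. The list came from mouse salivary gland organoids (mSGOs), which are spheres of cells grown in Matrigel from dissociated submandibular gland tissue. The 4 samples were non-irradiated mSGOs of C57BL/6 mice, 2 at passage 1 and 2 at passage 2, and each passage was sampled once at a donor age of 12 weeks and once at 3 months. All were cultured in the same WRY medium, which holds EGF, FGF2, insulin, dexamethasone, the ROCK inhibitor Y27632 and media conditioned with R-spondin1 and Wnt3a, so no sample lacks these factors. The list gives no sample a value of its own. Passages and mice could therefore not be compared, replicate spread and depth are unknown, and all counts and folds below are descriptions without a test.

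During EMT, epithelial cells loosen cadherin junctions, lay down fibronectin and take on a vimentin cytoskeleton. SNAIL and ZEB proteins bind E-boxes of the form CACCTG and repress epithelial genes such as Cdh1, TWIST proteins pair with E proteins such as TCF4 at E-boxes, and members of the miR-200 family silence Zeb1 and Zeb2 mRNA. Many epithelial progenitors, in glands as elsewhere, carry only some of these features, a condition called hybrid E/M.

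A region was counted as at the 5′ end when its midpoint lay within 1 kb of the outermost 5′ end of the gene, as in the gene when its midpoint lay between the gene's ends, and as distal when it lay over 1 kb from every coding 5′ end and was nearest to that of the gene. A distal region can thus also be in the gene. A region was open at the 5′ end of 4 of the 10 genes (Snai1, Snai2, Vim and Tcf4), against 38.3% of all coding genes. In-gene regions were found for 5 of the 10 (Zeb1, Zeb2, Prrx1, Vim and Tcf4), against 39.5% of coding genes, and distal regions for 10 of the 10, against 40.3%. Together the genes had 61 distinct regions, of which 4 were at a 5′ end, 12 in a gene and 55 distal. The first share lay near its background. The second stood beside longer genes, with a median length of 57.2 kb against 17.5 kb for all coding genes. Per 100 kb of gene there were 1.39 in-gene regions, against 1.61 over all coding genes. The last one stood beside an unequal amount of sequence, since the stretch nearest to the 5′ end had a median of 364 kb for these genes and 50.4 kb for all coding genes.

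**Figure D1:**
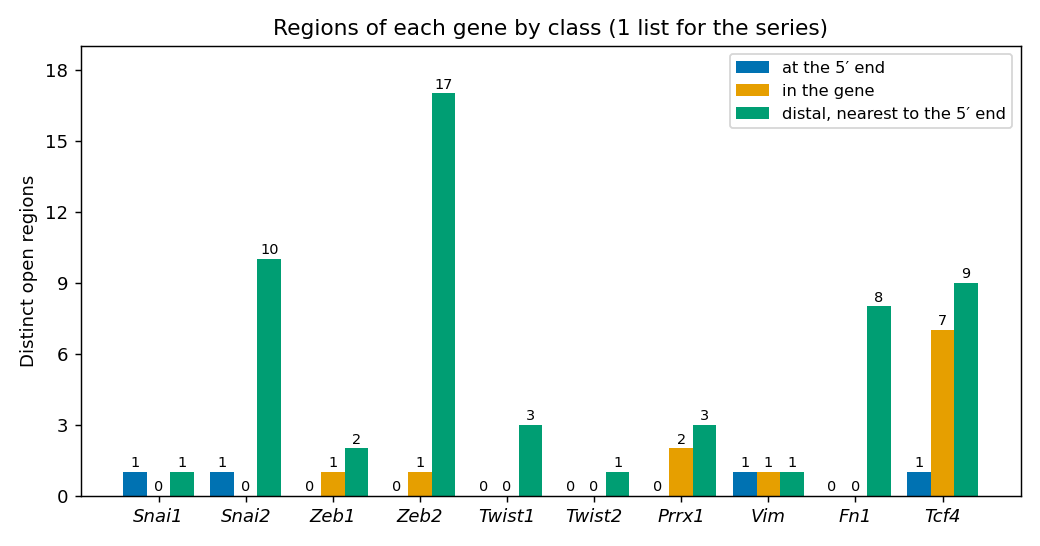
Distinct open regions (vertical axis, number) of each of the 10 genes (horizontal axis), as bars for regions at the 5′ end, in the gene and distal, where a region can be both in the gene and distal. Zeb2 had the most distal regions (17), followed by Snai2 (10), Tcf4 (9) and Fn1 (8), and 6 genes had no region at the 5′ end.

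The SNAIL genes, which act early in EMT, both had an open 5′ end. At Snai1 the region chr2:167537904-167538266 covered the start, with its midpoint 110 bp upstream, 1 summit, an IDR score of 931 and a fold of 8.23 over the local background. The IDR score rates how well replicates agree on a region, and in this list it runs from 540 to 1000. Which replicates were compared is not stated, so a high score does not show agreement between mice or passages. The median fold of all regions at coding 5′ ends was 7.9, so the Snai1 start was of middling strength. At Snai2 the region chr16:14705400-14705999 also covered the start, with its midpoint 153 bp upstream, 4 summits, an IDR score of 847 and a fold of 8.66.

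The 250 bases before the Snai1 start (RefSeq, GRCm38.p6, chr2:167537945-167538194, plus strand, 5′ to 3′) lie inside its open region and are shown because they alone, among the promoter windows at hand for these genes, held an E-box. Capitals mark every E-box (CANNTG) and every NF-Y box (CCAAT), TATA box (TATAAA) and GC box (GGGCGG) on either strand.

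Snai1: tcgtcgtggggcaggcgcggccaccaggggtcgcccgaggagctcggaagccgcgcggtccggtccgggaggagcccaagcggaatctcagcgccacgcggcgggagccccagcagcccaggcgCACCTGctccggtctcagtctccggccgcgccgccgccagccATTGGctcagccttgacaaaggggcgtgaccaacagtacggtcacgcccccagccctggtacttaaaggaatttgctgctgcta

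The E-box is CACCTG, the form bound by SNAIL and ZEB proteins themselves, and begins 126 bases before the start. A CCAAT box, read on the other strand, begins 84 bases before it. Among the 32851 windows of the RefSeq table, which reach 250 bases before and 50 after a start, 20.2% held CACCTG, and 72.3% held any CANNTG, of which CACCTG is 1 form. CCAAT was in 37.4% of them. With 34 CpG and 70% GC, the Snai1 window lay above the medians of coding windows that overlap a region (22 CpG and 61.7% GC).

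Beyond their starts the SNAIL genes differed in the number of distal regions, over stretches of 69.39 kb for Snai1 and 482.5 kb for Snai2. Per 100 kb of stretch they had 1.44 and 2.07. Snai1 lies between Spata2, 45.0 kb away, and Ube2v1, 93.8 kb away, and had 1 distal region, chr2:167569813-167570601, which lay 32.0 kb downstream with a fold of 5.51. Snai2 lies 888.7 kb from the next coding 5′ end downstream, that of Ube2v2, and 76.38 kb from the next upstream, that of LOC115488637. Most of its stretch thus lay downstream, and it had 10 distal regions, all downstream, from 94.5 to 409 kb. The strongest, and the nearest, was chr16:14800108-14800662 with a fold of 13.6 and an IDR score of 1000. A run of 5 regions stood within 12.7 kb, from 225.1 to 237.8 kb downstream, with folds of 8.65, 3.71, 8.49, 4.71 and 8.45. The last 2 regions lay side by side at 409 kb, near the 5′ end of the noncoding gene Gm41423, with folds of 5.73 and 5.00. Only 1.42% of coding genes had as many distal regions as Snai2, and 11.5% of the 915 coding genes nearest to a stretch of 400 to 800 kb did. For Snai1 the share was 47.1% of the 4616 coding genes with a stretch of 50 to 100 kb.

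**Figure D2:**
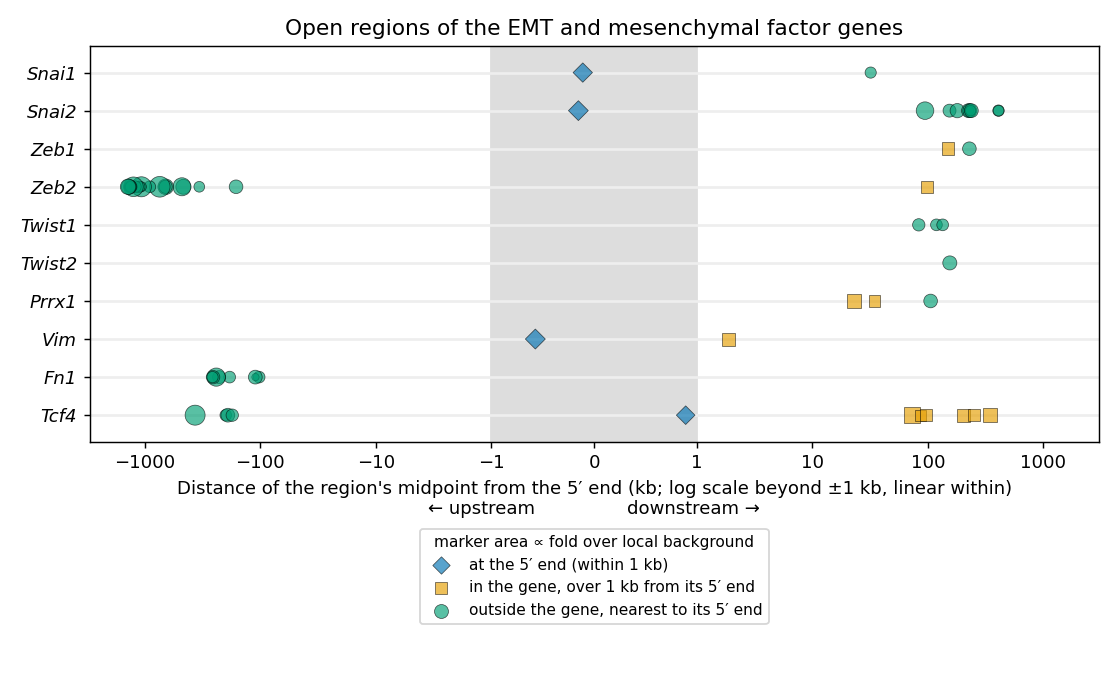
Position of each region (horizontal axis, kb from the gene's 5′ end, linear within 1 kb and on a log scale beyond it, upstream to the left) for the 10 genes (vertical axis), with marker area proportional to fold and marker shape giving its class. The grey band is the 1 kb on either side of the 5′ end, which holds a region for Snai1, Snai2, Vim and Tcf4, while the regions of Zeb2 and Fn1 outside the gene all lie upstream by over 100 kb.

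The ZEB genes, which keep epithelial genes silent in mesenchymal cells, had no region at the 5′ end. Zeb2 nevertheless had the most distal regions of the 10 genes, 17, all upstream, from 162 kb to 1395 kb. They lay in a desert in which the next coding 5′ end upstream, that of Acvr2a, is 3697 kb away. Downstream the next, that of Gtdc1, is 189.7 kb away, so most of the Zeb2 stretch lay upstream. The strongest was chr2:45859836-45860485, 743 kb upstream, with a fold of 18.8. Next came chr2:46187270-46187745, 1070 kb upstream, with 17.6, chr2:46370945-46371412, 1254 kb upstream, with 16.9, and chr2:45593823-45594471, 477 kb upstream, with 14.3. These 4 stood well above the upper quartile of all distal regions, 8.92, and each had an IDR score of 1000, as did 10 of the 17. The weakest of the 17, chr2:46187863-46188183 with a fold of 4.43, lay beside one of the strongest. As many distal regions were found for 0.215% of all coding genes and for 4.13% of the 484 coding genes nearest to a stretch of over 800 kb. Per 100 kb of its stretch, which was 1943 kb long, Zeb2 had 0.875 distal regions, near the 0.895 over all coding genes. The region in the gene, chr2:45019458-45019975, lay 97.7 kb from the Zeb2 5′ end with a fold of 6.05 and was nearest to the 5′ end of Gtdc1, so it is not among the 17. Being nearest in sequence does not show that a region acts on Zeb2.

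Zeb1 had far fewer regions, although its stretch was 400.6 kb long. The region in the gene was chr18:5740395-5740798, 149 kb downstream of the 5′ end, with a fold of 7.03 and an IDR score of 792. The other, chr18:5819714-5820735, lay 229 kb downstream, past the end of the gene, and was wide (1022 bp, 6 summits) with a fold of 8.16 and an IDR score of 1000. Of the 915 coding genes with a stretch of 400 to 800 kb, 53.3% had as many distal regions as Zeb1, whose count of 2 was the median of that group.

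Open regions were also read at the microRNA genes that hold ZEB mRNA down. Mir200c and Mir141, which are transcribed together, lay 561 and 966 bp downstream of the midpoint of 1 region, chr6:124718798-124719105, with a fold of 7.42 and an IDR score of 1000. Mir200b, Mir200a and Mir429 had no region within 1 kb, and the nearest, chr4:156059313-156060095 with a fold of 8.7 and an IDR score of 1000, was 3.95, 4.72 and 5.72 kb upstream. Mir205, which also targets ZEB mRNA, had a region 905 bp upstream with a fold of 5.22 and an IDR score of 576, near the lowest of the list. The starts of the primary transcripts are not given, so distances run from the hairpin. The mature 3′ arms are shown, from RefSeq, because the seed (bases 2 to 8, in capitals) sorts the family, with one seed shared by miR-200b, miR-200c and miR-429 and the other by miR-200a and miR-141.

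miR-200b-3p: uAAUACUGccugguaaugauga

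miR-200c-3p: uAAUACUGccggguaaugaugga

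miR-429-3p: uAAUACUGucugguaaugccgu

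miR-200a-3p: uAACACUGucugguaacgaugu

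miR-141-3p: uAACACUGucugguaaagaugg

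The same region thus gave each seed group its only gene with a region within 1 kb of the hairpin, Mir200c in the first and Mir141 in the second. It is 1 observation, and the share over all microRNA genes was not counted.

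The TWIST genes, known from mesoderm formation and from cell invasion, had no region at the 5′ end and none in the gene. Twist1, whose next coding 5′ ends are 29.25 kb upstream (Ferd3l) and 959.4 kb downstream (Hdac9), had 3 distal regions, all downstream. They lay at 83.5, 119 and 134 kb, with folds of 6.70, 6.05 and 6.05 and IDR scores of 986, 726 and 653. The nearest was chr12:34040910-34041334, and the other two lay inside the gene Hdac9. None reached the median fold of all distal regions, 6.87. Twist2 had 1, chr1:91956217-91956553, 155 kb downstream and inside Hdac4, with a fold of 8.68 and an IDR score of 1000. The promoter sequences are shown because they are as rich in GC and CpG as open starts of this list and yet hold no region. Both are from RefSeq, GRCm38.p6, plus strand, with capitals as above (Twist1, chr12:33957421-33957670, and Twist2, chr1:91801211-91801460).

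Twist1: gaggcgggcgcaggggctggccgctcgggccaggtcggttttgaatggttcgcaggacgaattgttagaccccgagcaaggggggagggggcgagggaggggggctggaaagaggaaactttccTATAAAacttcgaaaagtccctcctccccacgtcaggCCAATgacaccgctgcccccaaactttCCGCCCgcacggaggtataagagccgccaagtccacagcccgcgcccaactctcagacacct

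Twist2: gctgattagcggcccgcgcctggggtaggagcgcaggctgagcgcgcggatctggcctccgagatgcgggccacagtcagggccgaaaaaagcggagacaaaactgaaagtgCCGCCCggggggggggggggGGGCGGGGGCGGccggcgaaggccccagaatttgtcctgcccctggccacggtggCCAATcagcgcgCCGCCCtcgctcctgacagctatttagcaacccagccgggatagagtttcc

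The Twist1 window had 66% GC and 27 CpG and the Twist2 window 64.7% and 25, above the medians of 61.7% and 22 for coding windows that overlap a region and well above the 52.3% and 6 for those that overlap none. Twist1 holds a TATAAA 126 bases before the start (13.6% of all windows have one), a CCAAT at 89 bases and a GC box, GGGCGG, at 62 bases. Twist2 holds a CCAAT at 63 bases and 4 GC boxes, which 35.7% of windows have at least once. Neither holds a CANNTG. That no letters match says nothing about which factors bind.

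Prrx1, a homeobox gene of limb and craniofacial mesenchyme, had no region at the 5′ end and 3 downstream of it. In the gene lay chr1:163291957-163292429, 23.0 kb from the 5′ end, with a fold of 8.34 and an IDR score of 1000, and chr1:163280552-163280692, at 34.5 kb, with a fold of 5.72 and an IDR score of 606. The second was 141 bp wide and 572 bp from the 5′ end of the noncoding gene Gm20471. Past the end of the gene, chr1:163209334-163209639 lay 106 kb downstream with a fold of 8.18. Of the 3008 coding genes with a stretch of 100 to 200 kb, 27.5% had as many distal regions.

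Tcf4, whose E protein pairs with TWIST factors, had the most regions in the gene (7) over the longest gene, 345 kb. Its region at the 5′ end, chr18:69344076-69344566, lay inside the gene, 892 bp downstream of the start, with a fold of 7.63 and an IDR score of 1000. The strongest of the others in the gene was chr18:69415498-69415977, 72.3 kb downstream, with a fold of 11.1. The remaining 5 lay 87.1 to 344 kb downstream, with folds from 5.40 to 8.01 and IDR scores under 1000. Upstream were 4 regions, of which chr18:68976332-68976974, 367 kb away, had a fold of 17.6 and the other 3, at 175 to 199 kb, had folds from 5.89 to 8.34. In-gene regions stood at 2.03 per 100 kb in Tcf4, against 1.61 over all coding genes and 1.08 over the 2415 coding genes longer than 100 kb. As many as 7 were found in 1.5% of coding genes. As many distal regions were found for 14.1% of coding genes with a stretch of 400 to 800 kb.

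The products of the mesenchymal state, Vim and Fn1, differed in every class. Vim, which many cultured epithelial cells also make, had 2 regions, both with an IDR score of 1000. The first, chr2:13573510-13573969, had its midpoint 572 bp upstream, a fold of 8.75 and 3 summits, and ended 342 bp before the start. The second, chr2:13575960-13576402, was in the gene, 1.87 kb downstream, with a fold of 7.51. The 250 bases between the first region and the start (RefSeq, GRCm38.p6, chr2:13574061-13574310, plus strand, capitals as above) are shown since they fall in the gap between the 2 regions.

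Vim: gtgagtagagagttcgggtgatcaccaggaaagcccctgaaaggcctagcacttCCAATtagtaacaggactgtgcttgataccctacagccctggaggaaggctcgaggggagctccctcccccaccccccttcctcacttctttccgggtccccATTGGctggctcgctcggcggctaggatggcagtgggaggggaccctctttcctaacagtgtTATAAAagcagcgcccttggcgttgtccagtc

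They hold a TATAAA 32 bases before the start and CCAAT boxes at 196 and, on the other strand, 94 bases, with 59.3% GC and 11 CpG in the window. No CANNTG was found there, nor in the windows of Prrx1 or of the 4 starts listed for Zeb2. No promoter sequence was read for Snai2, Zeb1, Fn1 and Tcf4.

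Fn1, the gene of fibronectin, has its next coding 5′ ends 96.12 kb downstream (Atic) and 559 kb upstream (Mreg), so most of its stretch lay upstream. It had no region at the 5′ end and none in its 67.8 kb, but 8 distal regions, all upstream, from 102 to 259 kb. The strongest was chr1:71893588-71893997, 241 kb upstream, with a fold of 14.5 and an IDR score of 1000. A run of 5, this one included, spanned 75.1 kb from 184.2 to 259.3 kb upstream, with the other folds at 6.05, 7.48, 7.98 and 5.62. The 3 nearer ones, at 102, 110 and 111 kb, had folds of 5.96, 2.34 and 8.37. The second of these, chr1:71763415-71763487, was 73 bp wide with a −log10 q of 1.24, the weakest of the 61 regions, yet had an IDR score of 1000. It lay just before its stronger neighbour. Of all coding genes, 2.53% had as many distal regions as Fn1, and of the 1750 with a stretch of 200 to 400 kb, 11% did.

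**Figure D3:**
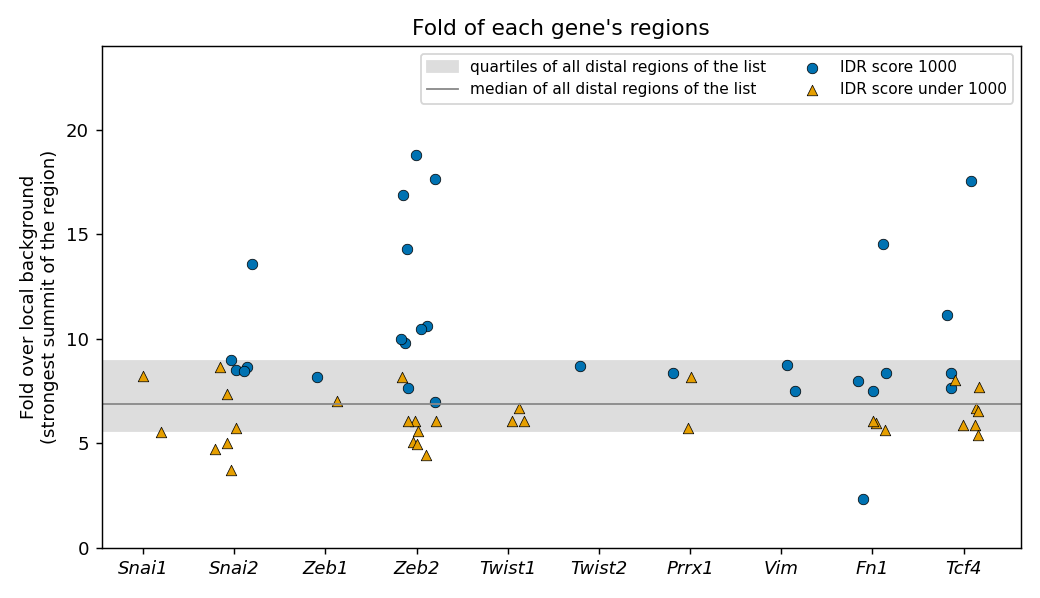
Fold over the local background at the strongest summit (vertical axis) of each region of the 10 genes (horizontal axis, points spread sideways for legibility), with circles for an IDR score of 1000, triangles for lower scores, and the grey band and line giving the quartiles and the median of all distal regions of the list. Folds from 13.6 to 18.8 are seen for 4 regions of Zeb2 and 1 each of Snai2, Fn1 and Tcf4, while those of Twist1, Twist2, Prrx1, Vim, Zeb1 and Snai1 stay under 9.

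Over the 10 genes, the 55 distal regions were far from their starts. Of these, 46 (83.6%) lay over 100 kb away, against 24% of all distal regions, and their median distance was 227 kb, against 36.3 kb. Distance is bounded by the stretch nearest to a 5′ end, which is longer for these genes (above), and the comparison was not matched on it. Only 1, in Vim, lay within 10 kb. By place, 9 were in the gene they were nearest to, 3 in another coding gene and 43 between coding genes, so 21.8% were in a coding gene, against 49.3% of all distal regions. Per 100 kb of stretch the genes had 1.08 distal regions, against 0.895 over all coding genes. Their folds had a median of 7.48 (quartiles 5.89 and 8.67), against 6.87 (5.58 and 8.92), and 49.1% had an IDR score of 1000, against 40.9%. Single genes moved these values in opposite ways, with 2.44 distal regions per 100 kb at Fn1 and 2.07 at Snai2, and 0.305 at Twist2 and 0.499 at Zeb1.

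**Figure D4:**
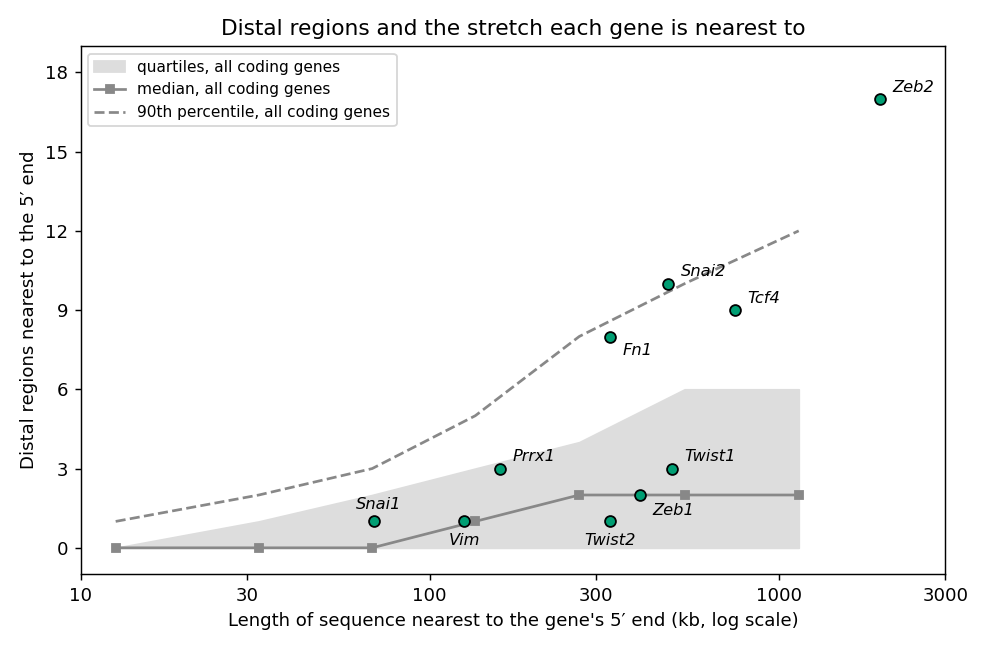
Distal regions (vertical axis, number) against the length of sequence nearest to the 5′ end (horizontal axis, kb, log scale) for the 10 genes (points), with the median, quartiles and 90th percentile of all coding genes in 7 classes of that length. Zeb2 lies above the 90th percentile, Snai2, Fn1 and Tcf4 lie near it, and the other 6 genes lie within the quartiles.

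The 6 genes without a region at the 5′ end (Zeb1, Zeb2, Twist1, Twist2, Prrx1 and Fn1) had 34 distal regions, 17 of them nearest to Zeb2. Their distal regions per 100 kb came to 0.931, and to 0.995 without Zeb2, beside 0.895 for all coding genes and 1.47 for the 4 genes with a region at the 5′ end, which had 21. These counts depended on the settings as follows. With 500 bp in place of 1 kb, the 5′ ends of Snai1 and Snai2 had a region and those of Vim and Tcf4 had none (35.35% of coding genes had one), whereas with an IDR score of 1000 required Vim and Tcf4 did and Snai1 and Snai2 did not (24.03%). When the 5′ ends of noncoding genes could also claim a region, 5 of the 55 distal regions were left to the 10 genes, 3 for Tcf4 and 1 each for Zeb1 and Vim. No matching count was made over all coding genes, so whether such a fall is particular to these genes was not tested.

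Gene lists around the same process were read in the same way. Among 8 paralogues and partners, the 5′ end was open in 3 (37.5%), near the 38.3% of all coding genes. These were the E protein gene Tcf3 and Id2 and Id4, whose proteins block E proteins. Snai3, Prrx2, Tcf12, Id1 and Id3 had no region there. Among 16 genes of mesenchymal matrix and cytoskeleton, 2 (12.5%) had one, Lox, which crosslinks collagen (fold 7.97), and S100a4 (8.47). The collagen genes Col1a1, Col1a2, Col3a1, Col5a1 and Col6a3, the cadherin genes Cdh2 and Cdh11 and the smooth muscle genes Acta2 and Tagln had none, and 7 of the 16 (43.8%) had no region in any class, a share near the 37.1% of all coding genes. Their distal regions came to 0.294 per 100 kb, against 0.895 over all coding genes.

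The list of the hybrid E/M state and migration had an open 5′ end in 13 of 16 genes (81.2%), against 38.3% of all coding genes. These included Cd44, the hyaluronan receptor (fold 7.18, with 10 distal regions), Itgb1 (10.7), Nt5e (6.76, with 11), Tnc (7.43, with 20) and Hmga2 (5.80, with 11), and the 3 without were Lamb3, Mmp14 and Axl. The authors report several genes of this list, such as Cd44, Itgb1, Nt5e and Hmga2, as expressed in mSGOs. The list was thus not picked independently of these organoids, and its high share is a description only. In the list of epithelial identity and EMT repressors, 13 of 16 had one as well, including Cdh1, the E-cadherin gene that SNAIL and ZEB proteins repress (fold 7.77, with 7 regions in the gene), the splicing factor genes Esrp1 and Esrp2, Ovol1 and Ovol2, whose products repress Zeb1, and Grhl2 (8.81, with 9 distal regions). The 3 without were Grhl3, Cldn7 and Trp63. Of 12 genes of EMT signalling, 6 (50%) had a region at the 5′ end, against 38.3% of all coding genes. Among the 6 were both receptor genes of TGF-β, Tgfbr1 and Tgfbr2, whereas the ligand genes Tgfb1, Tgfb2 and Tgfb3 had none. Tgfb2 had 18 distal regions and Tgfbr2 had 16.

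**Figure D5:**
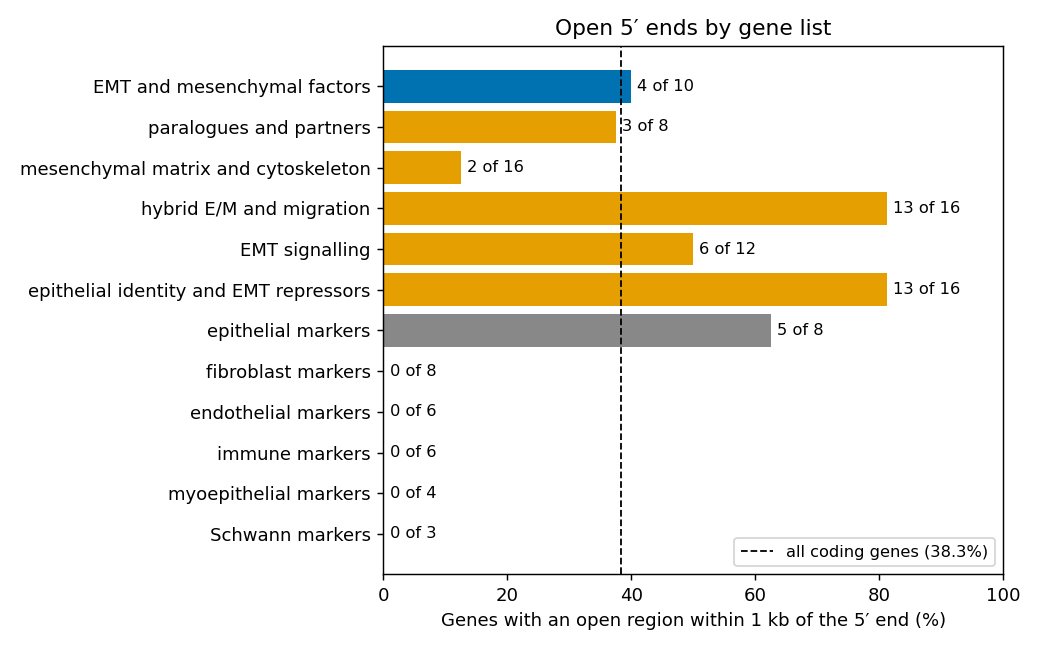
Share of genes with an open region within 1 kb of the 5′ end (horizontal axis, percent) in each gene list (vertical axis, bars with the count beside them), and the share of all coding genes as a dashed line at 38.3%. The hybrid E/M and epithelial lists stand at 81.2%, the EMT and mesenchymal factors at 40% and the mesenchymal matrix list at 12.5%, with fibroblast, endothelial, immune, myoepithelial and Schwann markers at 0. Some lists share genes, and the hybrid E/M list holds genes that the authors report as expressed in mSGOs.

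The lists share the list of regions and were not tested against each other. Markers checked the labelled tissue. Of 8 epithelial markers 5 (62.5%) had a region at the 5′ end (Epcam, Cdh1, Krt5, Krt14 and Krt8), against 38.3% of all coding genes. Trp63 and the other keratin genes of that list had none there. Among the 8 markers, 1 (12.5%) had no region in any class, against 37.1% of all coding genes. The counts were 0 of 8 for fibroblast, 0 of 6 for endothelial, 0 of 6 for immune, 0 of 4 for myoepithelial and 0 of 3 for Schwann cell markers. These markers were not without regions elsewhere. Fibroblast markers had 3 regions in the genes and 14 distal, of which Dcn and Dpt had 5 each, and endothelial markers had 4 and 16. Distal regions per 100 kb came to 3.35 for epithelial, 1.00 for fibroblast, 0.963 for endothelial, 0.207 for immune, 1.19 for myoepithelial and 1.41 for Schwann cell markers, beside 0.895 for all coding genes and 1.08 for the EMT genes. The other lists stood at 3.35 (epithelial identity and EMT repressors), 2.59 (EMT signalling), 2.33 (hybrid E/M and migration) and 0.918 (paralogues and partners). Epcam, Cdh1 and Trp63, with 4, 7 and 10 distal regions, were in both epithelial lists, so the equal values of these lists are not independent. Col1a1 and Col1a2 were in both the matrix and the fibroblast lists, and Acta2 and Tagln in both the matrix and the myoepithelial lists. The low shares of these lists are not independent either. The keratin genes among the epithelial markers had at most 2 each. A single list from bulk mSGOs cannot tell a region open in a few cells from one open weakly in all. Whether cells other than epithelial ones added to the regions near the EMT genes was not tested.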

How the data were processed

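ATAC-seq was performed by the authors on 4 mSGO samples, with 75 bp paired-end reads aligned and peaks called by the ENCODE ATAC-seq pipeline, and 1 peak list was deposited. It was taken here to be the consensus peak file of all samples, although neither its lines nor its distinct regions match the number stated for that file, so which samples it draws on is an assumption. Each of the 69545 lines deposited gives a region with a summit in it, the fold (ratio) at that summit over local background, an IDR score, and p- and q-values as −log10. The position columns of the deposited list hold other values, base positions. The submitters' processing notes name GRCm39 and HOMER, but the list was read as GRCm38: 38.3% of coding 5′ ends had a region within 1 kb with the GRCm38.p6 table, 3.77% after a shift of 50 kb and 5.04% with GRCm39 ends, and on 8 of 21 chromosomes a region ended past the GRCm39 end.

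Lines with the same ends were joined into 32011 distinct regions (median width 402 bp, median fold 7.11) with the values of the strongest summit. Strand came from the RefSeq promoter table by gene ID (17492 coding genes) or from GENCODE by name (3948), and 447 coding genes without one were left out. The gene table gives no exons, so introns and exons were not told apart. Functions were tested on simulated regions, where all 200 genes given a region at the 5′ end were found with one. A recount of 400 genes one by one gave no count that differed. The text names all members, some of their neighbouring genes and examples from each list. The rule for the lists was the genes with the most regions and those with none, but not every such gene is named and others, such as Ovol1, Ovol2, Esrp2 and S100a4, were added after their values were seen. Further, 1 gene of a list is counted but not reported here by name. The members and the lists were chosen with earlier results of these data known. Python 3.11.15, numpy 2.4.6, pandas 2.3.3 and matplotlib 3.10.9 were used.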

Additional observations from a re-analysis of the deposited data

How the results depend on the processing

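Alternatives changed 1 choice at a time, and 22 of 32 values stayed within 1.5 times the reported one. Members with a region at the 5′ end fell from 4 to 2 within 500 bp and to 2 with an IDR score of 1000, where the share of coding genes was 24.03%. Regions in the members' genes numbered 5 after only the regions with the lowest q were kept, to a count of 16006, 4 with an IDR score of 1000 and 25 when every line was counted, against 12. Distal regions numbered 27, 27 and 121 under the same 3 settings, against 55. They numbered 5 when noncoding 5′ ends competed, without a matching count over all coding genes. Placing regions by their summit or by any overlap moved none of these counts past that factor. Neither did 2 kb or strand from GENCODE alone for the 5′ end and distal counts, or either gene end or any listed start for the 5′ end counts, which were what these settings were run on. GENCODE strand and any listed start were chosen after seeing the data. The list gives no sample a value of its own, so none could be left out, counting depth is unknown and a region missing from the list cannot be told from closed DNA. No paired analysis was possible because the result comes from no test and the columns carry no sample. The planned comparison of the members' proteins was not run.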

Other observations

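Many regions of the list carry the same values. Of 32011 regions, 16817 (52.5%) share their pair of fold and −log10 q with at least 1 other region, and 274 have the pair of 6.05 and 16.3. Among the EMT and mesenchymal factor genes, 6 of the 61 regions have that pair, 3 of Zeb2, 2 of Twist1 and 1 of Fn1. In the whole list, 28 regions have an IDR score of 1000 with a q-value above 0.05, and the 73 bp region upstream of Fn1 is 1 of them.

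Beside the members, Klf5, whose protein is a factor of basal epithelium, had 22 distal regions, more than any member. Of the microRNA genes outside the miR-200 family, Mir34a, whose product targets Snai1 mRNA, had its nearest region 6.7 kb upstream with a fold of 9.91, and Mir203 had one 1.2 kb upstream with a fold of 4.4.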
